A study of Mus musculus with 9 samples.

Results

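The 7 genes described here, *Hmgcs1*, *Sqle*, *Insig1*, *Srebf2*, *Fdft1*, *Lss* and *Dhcr7*, encode enzymes and regulators of cholesterol synthesis. They were taken by name, and all 18 of their RefSeq transcript rows in the deposited table of 107384 rows were summed per gene. All 7 passed the filter on low counts and are among the 15267 protein-coding genes tested. None of the 7 is itself an uptake gene, so receptors and lysosomal genes were followed from a separate list of 50 other genes of sterol and fatty acid metabolism.

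The data came from RNA immunoprecipitation-sequencing (RIP-seq), in which an antibody pulls down a protein and the RNA held with it is sequenced. All 9 libraries held RNA of the cytoplasmic fraction from the P0 (postnatal day 0) cortex of heterozygous *Celf2* KI mice, which carry the p.Arg493His change in the RNA-binding protein CELF2 on one of their alleles. They comprised 3 CELF2-KI RIPs made with rabbit anti-CELF2, 3 control IgG RIPs made with normal rabbit IgG, and 3 input samples, taken from the fraction ahead of the pull-down. The antibody, 10 µg in each pull-down, was left on for 3 hours. Wild-type cortex was not analysed here, so KI and wild-type mice were not compared, and the lysate mixed neurons, glia, microglia and endothelial cells. The comparisons are of RNA recovered in the pull-downs and in input of this fraction, not of different tissues. The cell type that an RNA came from cannot be told in such bulk samples.

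Cholesterol in the brain is made in place, because the lipoproteins of the blood do not cross into it, and newborn neurons and glia build membrane quickly. Synthesis runs from acetyl-CoA through mevalonate to squalene, then through lanosterol to cholesterol. Its enzymes are controlled together: when sterols are low, the membrane-bound transcription factor SREBP-2, encoded by *Srebf2*, is carried to the Golgi by SCAP and cut, and its free end switches on the genes of the pathway. When sterols are high, INSIG proteins hold SCAP in the endoplasmic reticulum.

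A gene was called when the quasi-likelihood test of edgeR gave a Benjamini-Hochberg FDR under 0.01 over all 15267 genes and the change was at least 2-fold, which is 1 on the log2 scale. A target is a gene called higher both over IgG and over input, which is the definition of the study. Over IgG, that is in CELF2-KI RIP over IgG RIP, 13.4% of all genes were called higher and 13.6% lower. Over input, 14.6% were called higher and 15.5% lower, and between IgG RIP and input 6.79% were called higher in the IgG RIPs and 5.0% lower. In all, 7.58% of genes were targets and 9.54% were called lower than both controls.

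The protein-coding counts ranged from 13523190 to 16840230 in the CELF2-KI RIPs, from 9347252 to 14965224 in the IgG RIPs and from 55250725 to 78514665 in input, so input values carry the least counting error. Transcript rows with no gene in the annotation held 21.1% to 43.5% of the counts in the IgG RIPs, against 11.6% to 12.6% in the CELF2-KI RIPs and 9.24% to 9.75% in input. *Celf2* mRNA was at 638 ± 164 CPM (counts scaled to library size, SD, n = 3) in the CELF2-KI RIPs, 233 ± 33.4 CPM in the IgG RIPs and 296 ± 14.9 CPM in input. The summed CPM of 6 neuronal markers ranged from 3066 to 3569 in the CELF2-KI RIPs, from 1544 to 1921 in the IgG RIPs and from 2440 to 2619 in input, and 3 of the 6 were called higher over IgG and 0 over input. Of 6 markers of radial glia and astrocytes, 3 were called lower than the IgG RIPs and 4 lower than input. Their summed CPM was 471 to 938, 684 to 818 and 1162 to 1390 in the CELF2-KI RIPs, IgG RIP and input. The largest part of each sum was *Slc1a3*, at a mean of 492, 333 and 660 CPM in the same order, which was called over neither control. The 3 erythroid markers summed to 58.9 to 67.5 CPM, 263 to 414 CPM and 651 to 834 CPM in the same order. Among the 4 microglial markers *Csf1r* was at 0 in input and *P2ry12* was too low to test, and the summed CPM was 89.3 to 121.8 in the CELF2-KI RIPs, 43.4 to 58.4 in the IgG RIPs and 78.0 to 102.6 in input. Markers of oligodendrocyte precursors (4, at 543 to 647, 537 to 557 and 468 to 537 summed CPM in the same order) and of endothelial cells (4, at 90.2 to 121.0, 92.8 to 200.4 and 148 to 226) were all detected. The part that these markers have in the values below was not tested.

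Of the 7 genes, 3 (*Srebf2*, *Insig1* and *Dhcr7*) were called higher in the CELF2-KI RIPs than in the IgG RIPs and 1 (*Fdft1*) was called lower. The shares of all genes over IgG were 13.4% higher and 13.6% lower. Over input, 1 (*Srebf2*) was called higher and 1 (*Fdft1*) lower, near the shares of all genes over input, 14.6% and 15.5%. *Srebf2* was therefore the single target among them, and *Fdft1* the single gene called lower than both controls, beside 7.58% and 9.54% of all genes. The 7 genes were not tested as a set against these shares. Taken as a median, the 7 genes were at a log2 fold change of 0.97 over IgG and 0.41 over input, beside -0.06 and 0.19 over all genes. IgG RIP and input are each used against the same 3 CELF2-KI RIPs, so the comparisons share libraries.

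**Figure D1:**
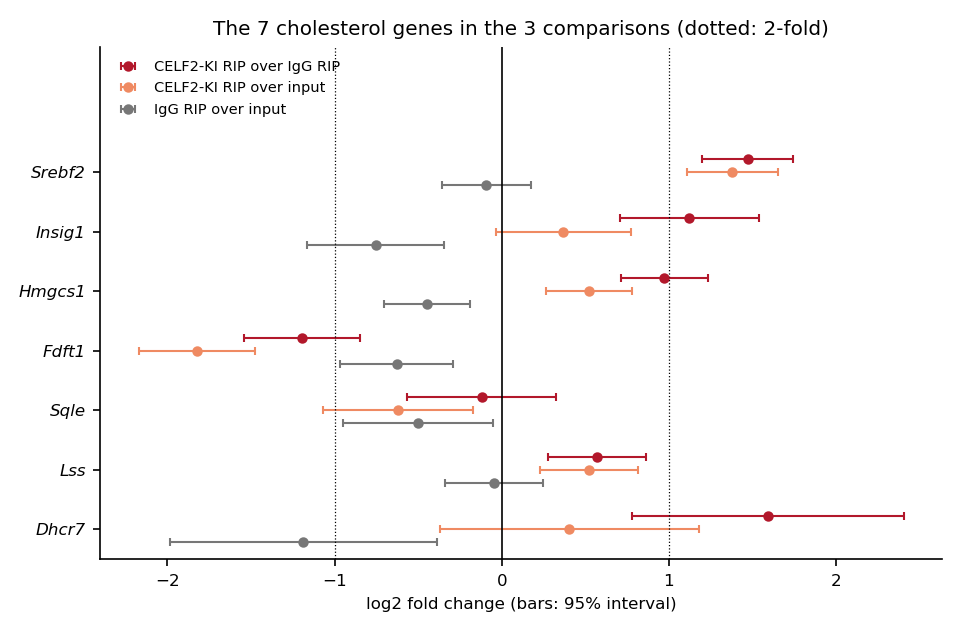
Log2 fold change (horizontal axis) of each of the 7 cholesterol genes in CELF2-KI RIP over IgG (red), CELF2-KI RIP over input (orange) and IgG over input (grey), with 95% intervals from the edgeR model over 9 libraries; dotted lines mark 2-fold. *Srebf2* lies above 2-fold in both CELF2-KI comparisons, *Fdft1* below it in both, and all 7 grey points lie below 0.

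The calls depended on how the libraries were scaled to each other. With the main TMM scaling 2050 genes were called higher and 2069 lower over IgG, against 937 and 3421 with total counts, 1212 and 3017 with upper-quartile scaling, and 1349 and 2820 when noncoding genes entered the TMM factors. Over input the main split was 2226 higher and 2366 lower, against 531 and 3581 with total counts, 1177 and 2964 with the upper quartile, 707 and 3377 with noncoding genes and 1566 and 2713 with DESeq2 size factors. Between IgG RIP and input, the main split of 1037 higher and 764 lower became 885 and 1020 with total counts and 783 and 1246 with noncoding genes. The median of all genes over IgG moved from -0.06 to -0.42 with total counts, -0.32 with the upper quartile and -0.27 with noncoding genes. The median over input moved from 0.19 to -0.27, -0.04 and -0.20 in the same order, and to 0.05 with DESeq2 size factors. Between the controls it moved from -0.0036 to -0.17 with noncoding genes. The direction of *Srebf2*, *Hmgcs1* and *Lss* (above 0) and of *Sqle* and *Fdft1* (below 0) in both CELF2-KI comparisons was the same under all of these scalings, while *Insig1* and *Dhcr7* kept theirs over IgG only.

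*Srebf2* (Entrez gene 20788, chr15:82147269-82205379 in GRCm38.p6) encodes SREBP-2, the transcription factor that drives the genes of cholesterol synthesis. It was at 1572.1, 2120.0 and 1729.2 CPM in the 3 CELF2-KI RIPs, 625.1, 652.4 and 676.4 CPM in the IgG RIPs and 693.5, 662.8 and 726.2 CPM in input. Every CELF2-KI RIP library was above all 6 controls, and the IgG RIP and input values overlapped. The gene was 2.77-fold higher than in the IgG RIPs (log2 1.47, SE 0.12, 95% interval 1.20 to 1.74, FDR 1.15e-05) and 2.60-fold higher than in input (log2 1.38, SE 0.12, 95% interval 1.11 to 1.65, FDR 1.13e-05). IgG RIP and input differed by -0.09 (SE 0.12), with a 95% interval of -0.36 to 0.17.

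Both calls of *Srebf2* held when any 1 of the 9 libraries was left out, with log2 fold changes of 1.34 to 1.56 over IgG and 1.23 to 1.47 over input. Over input the change was 0.91 with total counts and 0.98 with noncoding genes in the scaling, both under 2-fold, and a test against 2-fold itself gave an FDR of 0.0108. Over IgG it was 0.97, again under 2-fold, when only curated transcript rows were summed.

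The *Srebf2* gene also holds the microRNA gene *Mir33*, which is made from an intron of the *Srebf2* transcript and is known to repress the cholesterol exporter *Abca1*. Its 5p strand, from RefSeq on GRCm38.p6, is shown because it is read from the same primary transcript, with the seed (bases 2 to 8) in capitals. The row of the *Mir33* precursor was listed at 0 in all 9 libraries. These were directional libraries of rRNA-depleted RNA and not small RNA libraries, so the 0 does not show that the microRNA was absent.
mmu-miR-33-5p, chr15:82198127-82198147, + strand: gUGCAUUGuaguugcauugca

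*Insig1* (Entrez gene 231070, chr5:28071412-28078662) encodes the sterol sensor that holds SCAP and SREBP-2 in the endoplasmic reticulum. It was at 171.1, 111.4 and 123.4 CPM in the CELF2-KI RIPs, 49.1, 64.8 and 72.6 CPM in the IgG RIPs and 105.6, 109.8 and 98.9 CPM in input. All 3 CELF2-KI RIP values were above those of IgG RIP, and they also lay above input, where the nearest values were 111.4 and 109.8 CPM. *Insig1* was 2.18-fold higher than in the IgG RIPs (log2 1.12, SE 0.19, 95% interval 0.71 to 1.54, FDR 0.000536). Over input the log2 fold change was 0.37 (SE 0.18, 95% interval -0.04 to 0.77, FDR 0.103), which was not called and was -0.08 with total counts and -0.01 with noncoding genes in the scaling.

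The *Insig1* call over IgG rested on replicate 1 of both pull-downs. It was lost without CELF2-KI RIP replicate 1 (log2 0.92) and without IgG RIP replicate 1 (log2 0.97), and held in 7 of 9 such fits. It was also lost under the 3 scalings that lower the median of all genes most, at 0.77 with total counts, 0.86 with the upper quartile and 0.91 with noncoding genes. The span of *Insig1* lies inside that of the long noncoding RNA gene *Gm35223*, and whether the pseudoalignment used strand is not given in the sources used here.

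The paralogs of both regulators were measured as well. *Insig2*, which encodes the other INSIG protein, was at 49.3 ± 9.23 CPM in the CELF2-KI RIPs, 10.9 ± 2.01 CPM in the IgG RIPs and 16.1 ± 0.984 CPM in input. It was a target, with log2 fold changes of 2.17 (SE 0.19) over IgG and 1.61 (SE 0.18) over input. *Srebf1*, whose SREBP-1 proteins drive chiefly fatty acid synthesis, was at 18.02 ± 9.56, 45.5 ± 37.0 and 28.0 ± 5.60 CPM. The CELF2-KI RIPs were at 28.0, 8.93 and 17.1 CPM. They overlapped the IgG RIPs, at 21.5, 26.9 and 88.1 CPM, where replicate 3 held the high value. The log2 fold change of *Srebf1* was -1.34 over IgG (SE 0.54, FDR 0.0565) and -0.64 over input (SE 0.53, FDR 0.320), neither of which passed the test. The difference between paralogs was not tested.

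**Figure D2:**
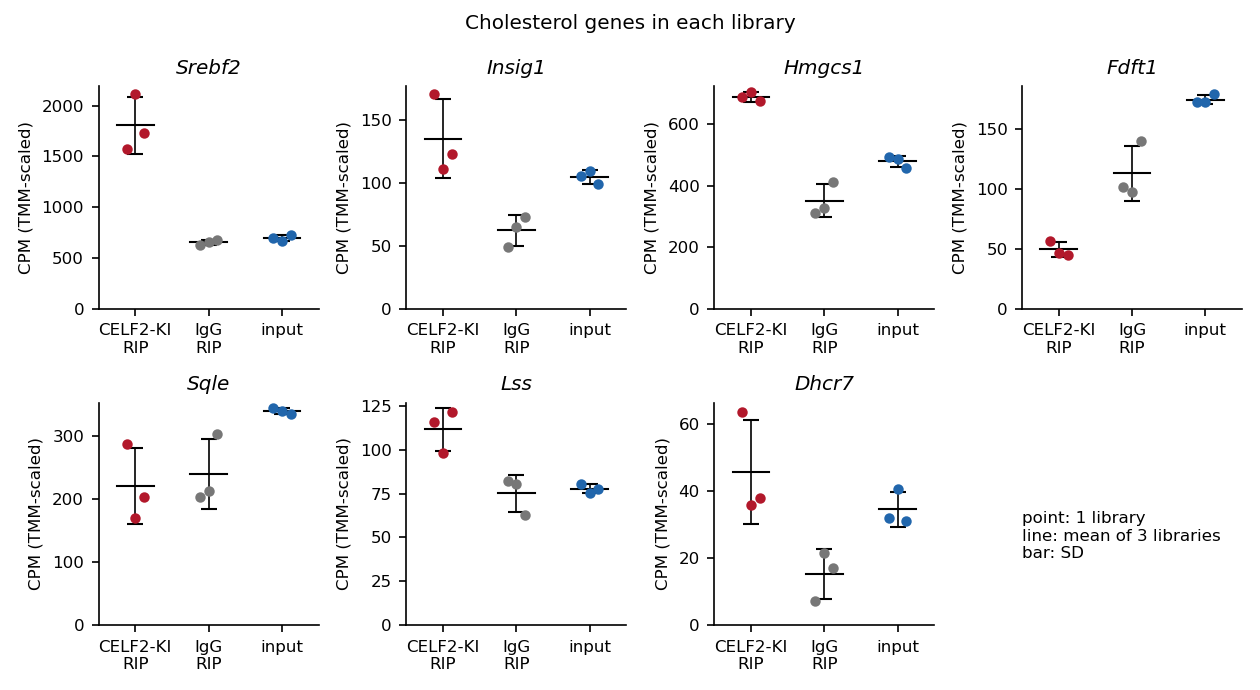
TMM-scaled CPM (vertical axis, from 0 in each panel) of the 7 cholesterol genes in the 3 CELF2-KI RIP (red), 3 IgG RIP (grey) and 3 input (blue) libraries; points are libraries, lines are means and bars are the SD. The *Srebf2* points of CELF2-KI RIP, 1572.1 to 2120.0 CPM, stand clear of all 6 controls, the *Fdft1* points of 44.8 to 56.9 CPM lie below all of them, and the *Sqle* points of the 2 pull-downs overlap.

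*Hmgcs1* (Entrez gene 208715, chr13:119690351-119708260) encodes the cytosolic HMG-CoA synthase, an early enzyme of the mevalonate pathway. It was at 687.1, 703.8 and 674.2 CPM in the CELF2-KI RIPs, 311.7, 328.6 and 412.1 CPM in the IgG RIPs and 492.5, 485.6 and 458.3 CPM in input. The groups did not overlap, with CELF2-KI RIP highest, input between and IgG RIP lowest. The gene was 1.96-fold higher than in the IgG RIPs (log2 0.97, SE 0.12, 95% interval 0.71 to 1.23, FDR 7.29e-05) and 1.44-fold higher than in input (log2 0.52, SE 0.12, 95% interval 0.27 to 0.78, FDR 0.00286). Both differences passed the FDR and neither reached 2-fold. In edgeR the FDR over input was passed with the main scaling and with none of the other scalings of the gene counts. The log2 fold change was 0.39 with DESeq2 size factors (FDR 0.0195) and 0.29 with the upper quartile (FDR 0.0531). It was 0.13 with noncoding genes (FDR 0.419) and 0.06 with total counts (FDR 0.672). The Wald test of DESeq2, which uses its own size factors, passed the FDR at 0.39 (FDR 0.00490). Without IgG RIP replicate 3 the log2 fold change over IgG was 1.10, which was called.

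*Fdft1* (Entrez gene 14137, chr14:63145150-63181687) encodes squalene synthase, the first enzyme that commits the pathway to sterols. It was at 56.9, 46.6 and 44.8 CPM in the CELF2-KI RIPs, 101.9, 97.3 and 139.8 CPM in the IgG RIPs and 172.6, 172.7 and 179.3 CPM in input. CELF2-KI RIP was below both controls in every library, and IgG RIP was below input. *Fdft1* was 2.29-fold lower than in the IgG RIPs (log2 -1.19, SE 0.16, 95% interval -1.54 to -0.85, FDR 0.000118) and 3.54-fold lower than in input (log2 -1.82, SE 0.16, 95% interval -2.17 to -1.47, FDR 9.89e-06). Both calls held when any 1 library was left out, with -1.31 to -1.02 over IgG and -1.94 to -1.76 over input. A test against 2-fold itself did not call it over IgG (FDR 0.191).

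The end of the *Fdft1* span overlaps that of *Ctsb*, the gene of the lysosomal protease cathepsin B. *Ctsb* was at 177 ± 36.3, 289 ± 55.8 and 551 ± 52.4 CPM in the CELF2-KI RIPs, the IgG RIPs and input. This is a log2 fold change of -0.71 over IgG (SE 0.18), which was not called, and -1.64 over input (SE 0.18), which was called lower. The part of shared reads in the *Fdft1* values was not tested.

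*Sqle* (Entrez gene 20775, chr15:59315092-59331193) encodes squalene epoxidase, which adds the oxygen that allows the ring closure. It was at 287.7, 170.5 and 202.9 CPM in the CELF2-KI RIPs, 202.7, 213.1 and 303.0 CPM in the IgG RIPs and 343.7, 339.0 and 335.1 CPM in input. The 2 pull-downs overlapped and both lay below every input library. The log2 fold change was -0.12 over IgG (SE 0.20, 95% interval -0.57 to 0.33, FDR 0.638), so the interval allows a change of up to 0.57 in size. Over input it was -0.62 (SE 0.20, 95% interval -1.07 to -0.17, FDR 0.0212), which did not pass the threshold. With total counts it was -1.07 (FDR 0.00226), which was called lower. The sign over IgG turned to 0.03 without CELF2-KI RIP replicate 2 and to 0.08 without IgG RIP replicate 3.

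*Lss* (Entrez gene 16987, chr10:76531565-76557139) encodes lanosterol synthase, which closes the sterol rings. It was at 115.9, 97.9 and 121.4 CPM in the CELF2-KI RIPs, 82.4, 80.4 and 63.1 CPM in the IgG RIPs and 80.4, 75.5 and 77.5 CPM in input. CELF2-KI RIP was above all 6 controls and the controls overlapped. The log2 fold change was 0.57 over IgG (SE 0.13, 95% interval 0.27 to 0.86, FDR 0.00426) and 0.52 over input (SE 0.13, 95% interval 0.23 to 0.81, FDR 0.00601). Both passed the FDR with the main scaling and stayed under 2-fold. With total counts the log2 fold changes were 0.20 (FDR 0.266) and 0.07 (FDR 0.730), and neither passed with the upper quartile or with noncoding genes in the scaling. Without Input replicate 2 the FDR was 0.0238 over IgG and 0.0743 over input. The span of *Lss* overlaps the long noncoding RNA gene *4930483K19Rik*.

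*Dhcr7* (Entrez gene 13360, chr7:143823167-143848410) encodes 7-dehydrocholesterol reductase, the last step of one branch of the pathway and the enzyme that is deficient in Smith-Lemli-Opitz syndrome. It was at 63.5, 35.8 and 37.8 CPM in the CELF2-KI RIPs, 7.13, 21.6 and 17.1 CPM in the IgG RIPs and 31.9, 40.5 and 31.1 CPM in input. CELF2-KI RIP was above IgG RIP in every library and overlapped input. The gene was 3.02-fold higher than in the IgG RIPs (log2 1.59, SE 0.36, 95% interval 0.78 to 2.41, FDR 0.00389), the widest interval of the 7 genes. Over input the log2 fold change was 0.41 (SE 0.35, 95% interval -0.37 to 1.18, FDR 0.335), and -0.04 with total counts.

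The call of *Dhcr7* over IgG was lost without CELF2-KI RIP replicate 1 (log2 1.28, FDR 0.0171) and held in the other 8 of 9 such fits. It was also lost with total counts (log2 1.24, FDR 0.0176), with the upper quartile (log2 1.33, FDR 0.0106) and with noncoding genes in the scaling (log2 1.39, FDR 0.0117), and when the input libraries were left out of the fit (log2 1.54, FDR 0.0138).

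In CELF2-KI RIP against IgG RIP, the 3 libraries of 5 of the 7 genes lay above all 3 of the other group, as for 30.0% of all genes, and those of *Fdft1* lay below, as for 27.4%. Against input, *Srebf2*, *Insig1*, *Hmgcs1* and *Lss* lay above in every library, as for 42.1% of all genes, and *Sqle* and *Fdft1* below, as for 31.8%. Between the controls 5 genes (*Hmgcs1*, *Sqle*, *Insig1*, *Fdft1* and *Dhcr7*) were lower in every IgG RIP library than in input, as for 29.4% of genes, and none was higher throughout, as for 27.1%.

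The controls were also compared with each other. The log2 fold change of IgG over input was below 0 for all 7 genes with a median of -0.50, beside -0.0036 over all genes. The values were -1.19 for *Dhcr7* (SE 0.36, FDR 0.0244), -0.75 for *Insig1* (SE 0.18, FDR 0.00927), -0.63 for *Fdft1* (SE 0.15, FDR 0.00879), -0.50 for *Sqle* (SE 0.20, FDR 0.0714), -0.45 for *Hmgcs1* (SE 0.12, FDR 0.0122) and -0.05 for *Lss* (SE 0.13, FDR 0.797). By edgeR 0 of the 7 were called, while the Wald test of DESeq2 called 1, *Dhcr7* at -1.25 (FDR 0.00213).

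The start regions of 5 of the 7 genes were in the RefSeq promoter table of GRCm38.p6, which holds 250 bases before and 50 after each start. Those of *Srebf2*, *Hmgcs1* and *Insig1* are shown because SREBP-2 is known to act on promoters of this pathway. These mRNAs were among those higher in the CELF2-KI RIPs, *Hmgcs1* by less than 2-fold. *Lss* and *Dhcr7* were also higher over IgG. Their windows are not shown and hold neither the sterol regulatory element nor its core. RIP-seq reports on RNA and not on promoters, so the sequences are a description. Capitals mark the core TCACNCCA of the sterol regulatory element and the CCAAT box, each on either strand, so that ATTGG is a CCAAT box read from the other strand.
*Srebf2*, chr15:82147019-82147318, + strand: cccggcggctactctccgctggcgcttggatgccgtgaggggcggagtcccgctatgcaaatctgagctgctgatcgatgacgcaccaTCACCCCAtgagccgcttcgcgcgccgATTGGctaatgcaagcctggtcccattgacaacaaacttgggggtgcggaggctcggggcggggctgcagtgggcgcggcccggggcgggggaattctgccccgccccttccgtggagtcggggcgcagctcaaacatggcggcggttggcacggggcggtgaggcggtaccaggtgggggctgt
*Hmgcs1*, chr13:119690101-119690400, + strand: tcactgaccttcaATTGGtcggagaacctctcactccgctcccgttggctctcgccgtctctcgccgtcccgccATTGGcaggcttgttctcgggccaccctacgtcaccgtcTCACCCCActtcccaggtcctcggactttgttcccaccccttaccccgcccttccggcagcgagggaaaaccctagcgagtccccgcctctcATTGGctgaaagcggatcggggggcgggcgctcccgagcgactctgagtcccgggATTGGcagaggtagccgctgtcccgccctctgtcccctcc
*Insig1*, chr5:28071162-28071461, + strand: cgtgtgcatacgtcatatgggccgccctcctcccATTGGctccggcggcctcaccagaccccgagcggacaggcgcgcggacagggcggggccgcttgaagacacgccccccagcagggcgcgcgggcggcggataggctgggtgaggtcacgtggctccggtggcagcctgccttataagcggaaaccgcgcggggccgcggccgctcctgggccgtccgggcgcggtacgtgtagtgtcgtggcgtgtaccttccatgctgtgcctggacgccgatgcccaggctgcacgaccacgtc

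The full sterol regulatory element TCACNCCAC was found on either strand in 1.24% of 32851 such windows and, among the 5 genes, in *Hmgcs1*, at -137 to -129 from the start. Its core TCACNCCA, a shorter form added after the first search and contained in the full element, was in 4.36% of windows and in *Hmgcs1* and *Srebf2*, where it lay at -162 to -155. A CCAAT box, the site of the factor NF-Y, was in 37.4% of windows and in at least 1 window of each of the 5 genes. These genes have 7 windows, and windows 1 and 2 of *Dhcr7* held no CCAAT box. It was seen 4 times in the *Hmgcs1* window and once in that of *Srebf2*, at -135 to -131, and of *Insig1*, at -216 to -212. No match says only that these letters are not in the window.

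The rows of single transcripts showed where the gene totals came from. Transcript models are curated or predicted in RefSeq, and the split of reads between models of a gene is an estimate of the pseudoaligner, so these values are less firm than the sums. The rows were fitted with their own library sizes and TMM factors, so their log2 fold changes are not on the scale of the gene totals. *Insig1* and *Sqle* have 1 row each, with the same counts by gene and by row. Over input they were at 0.37 and -0.62 by gene and at -0.10 and -1.09 by row. Over IgG they were at 1.12 and -0.12 by gene and at 0.90 and -0.34 by row. Among 39137 rows tested, 3.19% were called higher and 3.15% lower over IgG, and 0.940% higher and 4.51% lower over input. Of the 18 rows of the 7 genes, the predicted model of *Srebf2* was the only one called higher than both controls and the curated model of *Fdft1* the only one called lower than both.

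The predicted model of *Srebf2* held 46.2% ± 3.39 (SD, n = 3) of the gene's counts in the CELF2-KI RIPs, 31.7% ± 4.41 in the IgG RIPs and 36.9% ± 1.10 in input. Its share was higher in every CELF2-KI RIP library (43.4% to 49.96%) than in any control (28.3% to 38.0%). Its log2 fold change was 1.78 over IgG (SE 0.17, FDR 0.000948) and 1.22 over input (SE 0.17, FDR 0.00319). On the scale of the row fit the curated model was higher by less than 2-fold, at 0.89 (SE 0.08, FDR 0.000899) over IgG and 0.65 (SE 0.08, FDR 0.00231) over input. Whether it passes 2-fold on the scale of the gene totals was not tested. The difference between the models was not tested.

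The curated model of *Fdft1* held 59.9% ± 5.97 of the counts in the CELF2-KI RIPs, 72.6% ± 9.98 in the IgG RIPs and 90.9% ± 1.59 in input, where every library was above all 6 pull-downs. Its log2 fold change in the CELF2-KI RIPs was -1.71 (SE 0.27, FDR 0.00537) over IgG and -2.89 (SE 0.28, FDR 0.000760) over input. Of the other 2 models, the one with more counts (predicted 2) had log2 fold changes of -0.82 (SE 0.25, FDR 0.0662) and -0.15 (SE 0.25, FDR 0.833), neither of which passed the test.

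**Figure D3:**
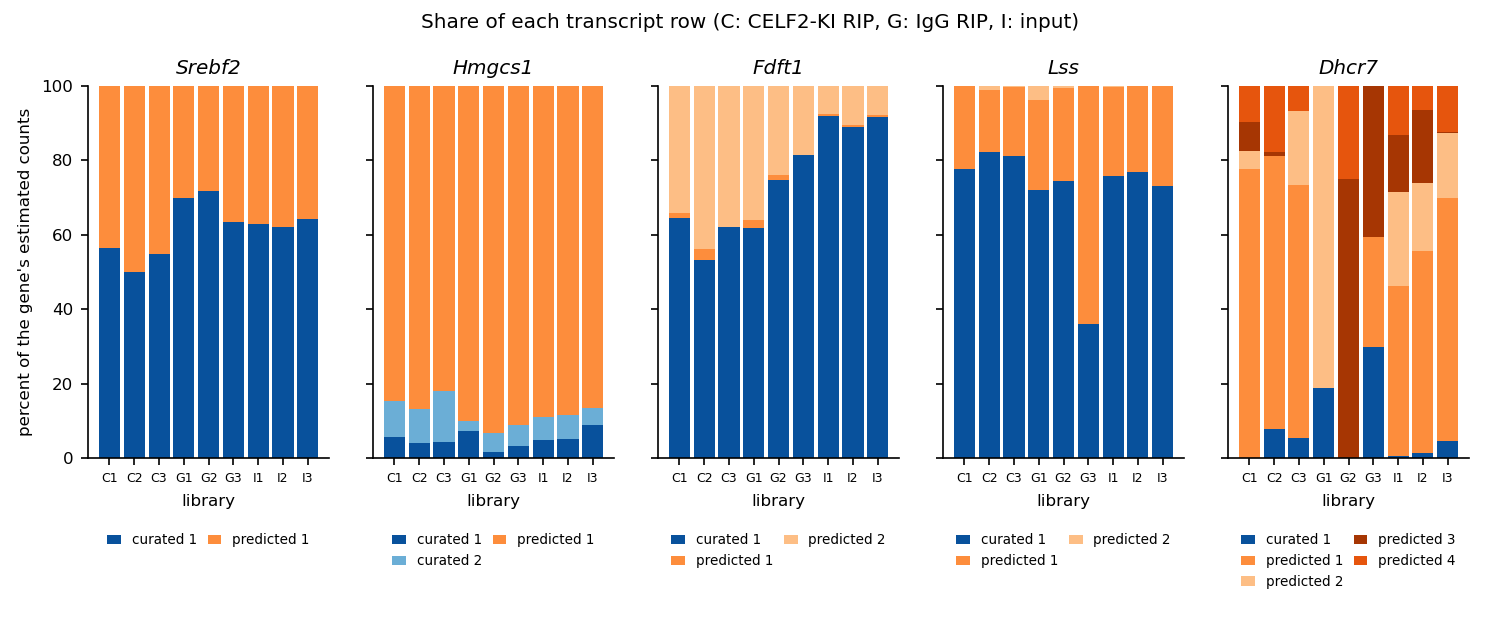
Percent of each gene's estimated counts (vertical axis) assigned to each of its transcript rows in the 9 libraries (C, CELF2-KI RIP; G, IgG RIP; I, input), for the 5 genes with more than 1 row; blue shades are curated and orange shades predicted models. The curated *Fdft1* model holds 89.0% to 91.9% in input and 53.1% to 64.5% in the CELF2-KI RIPs, and the *Dhcr7* rows change from one IgG RIP library to the next.

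Most counts of *Hmgcs1* were on its predicted model, 84.5% ± 2.35 in the CELF2-KI RIPs, 91.5% ± 1.62 in the IgG RIPs and 88.0% ± 1.22 in input. In the row fit the log2 fold change of this row was 0.63 over IgG (SE 0.13, FDR 0.0154) and -0.02 over input (SE 0.13, FDR 0.966), and neither passed the test. Because the row fit is scaled differently, these values cannot be set beside the 0.97 and 0.52 of the gene total. When only curated rows were summed, the log2 fold change of *Hmgcs1* over IgG was 1.69 and was called. The curated *Lss* model held 80.3% ± 2.47, 60.8% ± 21.5 and 75.3% ± 1.92 of the counts, and the low share in the IgG RIPs came from replicate 3, at 36.1%.

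*Dhcr7* was spread over 5 rows that the pseudoaligner split differently between libraries. Its main predicted model held 73.1% ± 4.76 of the counts in the CELF2-KI RIPs and 55.2% ± 9.99 in input, and in the IgG RIPs it was at 0 in 2 libraries and 29.6% in the third. The curated model held at most 7.72% in the CELF2-KI RIPs. With curated rows alone the log2 fold change of *Dhcr7* over IgG had the opposite sign, -0.56, and with rows of the version in the gene table it was 0.17, so the values of this gene depend on how its rows are summed.

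Along the pathway the calls went in both directions. Of 19 enzymes followed between acetyl-CoA and cholesterol, 4 were called higher and 5 lower over IgG, and 1 higher and 5 lower over input. For this list and each list below, the shares over all genes were 13.4% higher and 13.6% lower over IgG. Over input they were 14.6% higher and 15.5% lower, and against both controls 7.58% higher and 9.54% lower. No list was tested against these shares. The single target among them was *Hsd17b7*, and 5 (*Mvk*, *Mvd*, *Fdps*, *Fdft1* and *Nsdhl*) were called lower than both controls. All 19 were below 0 in IgG over input, with a median of -0.63, beside -0.0036 over all genes. Of the 19, 3 were called lower and 0 higher, beside 5.0% and 6.79% of all genes. Some lay near 0, such as *Lss* at -0.05 (FDR 0.797). Several genes below (*Scap*, *Npc2*, *Lrp1*, *Scarb1*, *Abca1*, *Cyp46a1*, *Ebp* and *Fasn*) are named after their values were seen.

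**Figure D4:**
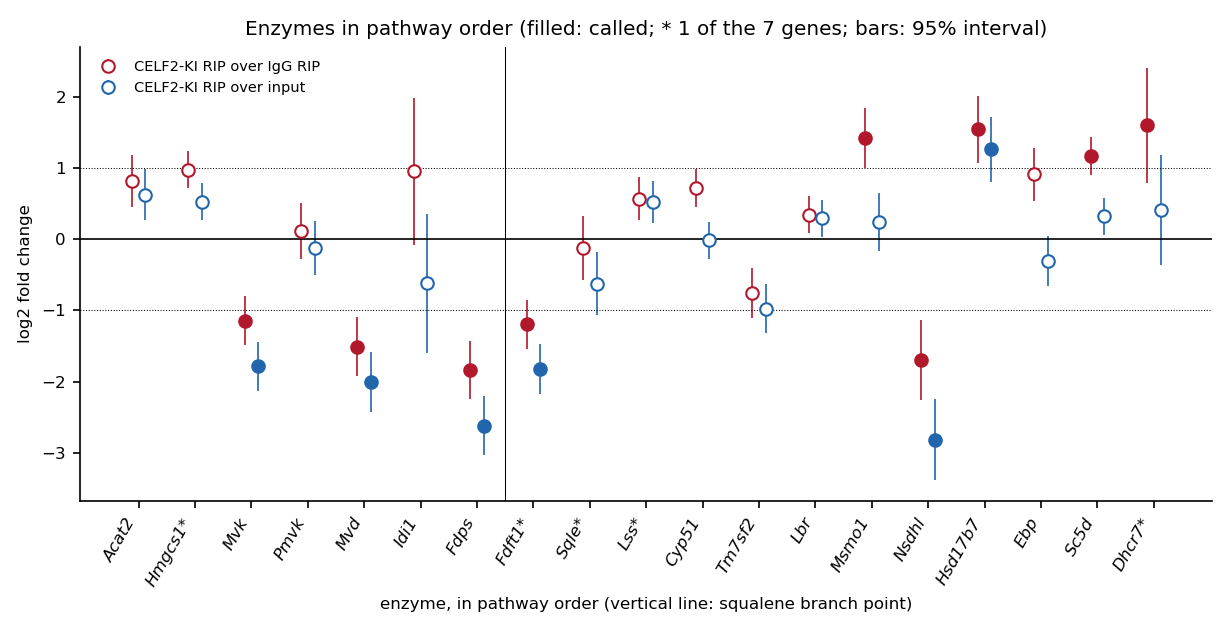
Log2 fold change (vertical axis) of 19 cholesterol synthesis enzymes in pathway order (horizontal axis, asterisks mark the genes described in full) in CELF2-KI RIP over IgG (red) and over input (blue), with 95% intervals; filled points were called and dotted lines mark 2-fold. Filled points below 0 in both colours stand at *Mvk*, *Mvd*, *Fdps*, *Fdft1* and *Nsdhl*, and above 0 in both at *Hsd17b7*.

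Of 7 enzymes before squalene, 0 were called higher and 3 lower over IgG, with the same counts over input. The 3 enzymes called lower than both were *Mvk*, mevalonate kinase, at -1.14 over IgG and -1.78 over input, *Mvd*, the decarboxylase, at -1.51 and -2.00, and *Fdps*, farnesyl diphosphate synthase, at -1.83 and -2.62.

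From squalene on, 4 of 12 enzymes were called higher and 2 lower over IgG, and 1 higher and 2 lower over input. *Hsd17b7*, the 3-keto reductase, was at 1.54 (SE 0.21) over IgG and 1.26 (SE 0.21) over input. *Nsdhl*, which acts with it in removing the C4 methyl groups, was called lower than both controls at -1.70 (SE 0.25) and -2.81 (SE 0.25). *Msmo1*, the methyl oxidase of the same steps, and *Sc5d*, the desaturase just before *Dhcr7*, were called higher over IgG at 1.42 and 1.16 and not over input at 0.24 and 0.32. *Msmo1*, *Nsdhl* and *Ebp* were called lower in the IgG RIPs than in input, at -1.18, -1.12 and -1.21.

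Of the 10 regulators of SREBP, 5 were called higher over IgG and 0 lower, and 3 higher and 1 lower over input. *Rnf145*, a ubiquitin ligase that is known to act on SCAP, was a target beside *Srebf2* and *Insig2*, at 1.84 (SE 0.12) over IgG and 1.24 (SE 0.12) over input. *Rnf139*, a further ubiquitin ligase of this system, was called over IgG at 1.28 (SE 0.13) and was at 0.94 (SE 0.13) over input. *Scap*, the escort of SREBP-2, was called lower than input at -1.23 (SE 0.18) and was at -0.81 (SE 0.18) over IgG.

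**Figure D5:**
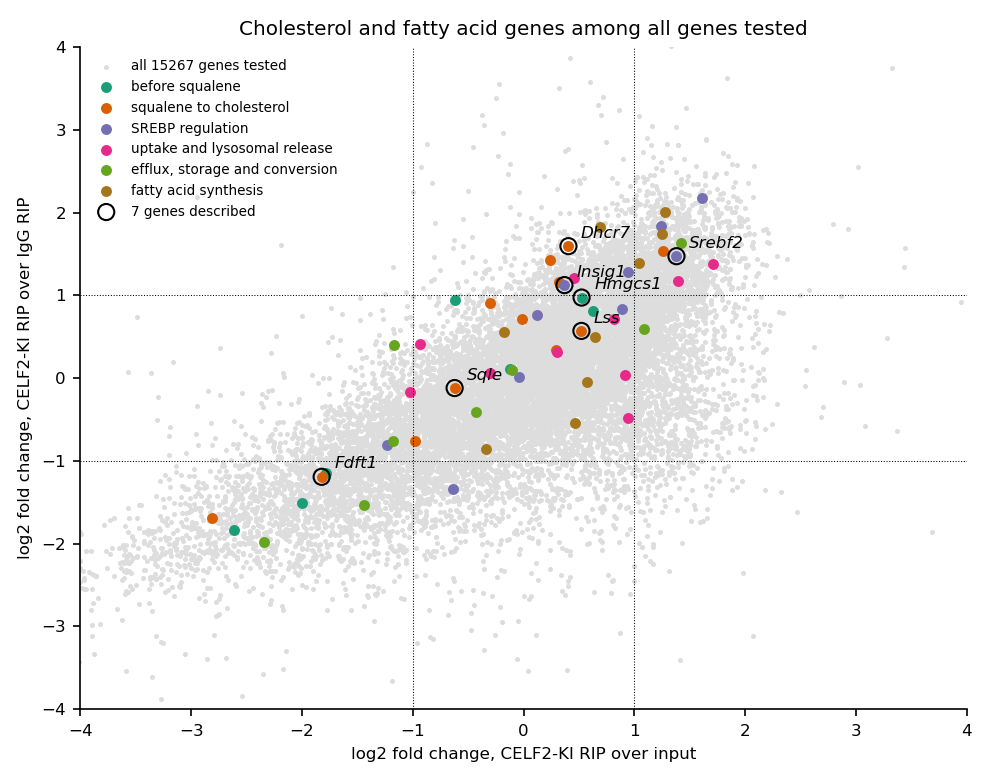
Log2 fold change over input (horizontal axis) against that over IgG (vertical axis) for all genes tested (grey) and the 6 pathway lists (colours), with the 7 cholesterol genes circled; dotted lines mark 2-fold, 142 of 15267 genes lie outside the axes, and both axes use the same CELF2-KI RIPs. *Srebf2* lies in the upper right corner past 2-fold on both axes and *Fdft1* in the lower left.

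Of 10 genes of uptake and lysosomal release, 3 were called higher over IgG and 0 lower, and 2 higher and 1 lower over input. Both targets were lipoprotein receptors. *Vldlr* and *Lrp8*, which are also the reelin receptors of migrating cortical neurons, were at 1.38 (SE 0.18) and 1.17 (SE 0.17) over IgG and at 1.71 (SE 0.18) and 1.39 (SE 0.17) over input. *Lipa*, the lysosomal acid lipase, was called over IgG at 1.21 (SE 0.28) and was at 0.45 (SE 0.27) over input. *Npc2*, the sterol carrier of the lysosome, was called lower than input at -1.03 (SE 0.13). Between the controls, *Lrp1* was called higher in the IgG RIPs at 1.43 (SE 0.10) and *Scarb1* lower at -1.35 (SE 0.14).

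For efflux, storage and conversion, 8 of 9 genes were tested, since *Ch25h* was too low, and 1 was called higher and 2 lower over IgG, and 2 higher and 3 lower over input. *Soat1*, which esterifies cholesterol for storage, was a target at 1.63 (SE 0.17) and 1.42 (SE 0.17). *Apoe* encodes the main apolipoprotein of glia. It was at 127 ± 22.9 CPM in the CELF2-KI RIPs, 501 ± 19.7 CPM in the IgG RIPs and 646 ± 43.2 CPM in input. *Apoe* was called lower than both at -1.98 (SE 0.14) and -2.35 (SE 0.14). *Nr1h2*, the sterol receptor LXR beta, was lower at -1.54 (SE 0.16) and -1.44 (SE 0.16). *Abca1* was called over input at 1.08 (SE 0.13) and was at 0.60 (SE 0.12) over IgG, and *Cyp46a1*, the neuronal 24-hydroxylase, was called lower than input at -1.18 (SE 0.20).

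Of 9 genes of fatty acid synthesis, 4 were called higher over IgG and 3 over input, and 0 were called lower in either. The targets were the desaturases *Scd1*, at 1.74 (SE 0.15) and 1.25 (SE 0.14), and *Scd2*, at 2.01 (SE 0.11) and 1.28 (SE 0.10), and the elongase *Elovl6*, at 1.39 (SE 0.12) and 1.05 (SE 0.12). *Fads2* was called over IgG at 1.83 (SE 0.12) and was at 0.69 (SE 0.12) over input. *Fasn*, the fatty acid synthase, was called higher in the IgG RIPs than in input at 1.01 (SE 0.14), and *Fads2* lower at -1.14 (SE 0.12).

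Over the 6 lists without the 7 genes, 14 of 49 genes tested were called higher over IgG and 6 lower, 10 were higher and 9 lower over input, and 9 were targets and 6 lower than both. The shares over all genes were 13.4% and 13.6% over IgG, 14.6% and 15.5% over input, and 7.58% and 9.54% against both. The median of these 49 genes was 0.41 over IgG and 0.24 over input, beside -0.06 and 0.19 over all genes. The number of targets was 2 with total counts, 3 with noncoding genes in the scaling and 7 with the upper quartile.

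The genes closest to *Srebf2* in log2 CPM over the 9 libraries were *Faxc*, *Rcan3* and *Igdcc4*, with Pearson's r of 0.998, 0.997 and 0.997. Those closest to *Hmgcs1* were *Desi2*, *Serinc1* and *Ids*, with r of 0.995, 0.995 and 0.994. These coefficients are descriptions over 9 libraries that fall into 3 groups and share their depth and scaling factors. Among the other 6 genes, r with *Srebf2* was 0.88 for *Hmgcs1*, 0.84 for *Lss*, 0.67 for *Insig1*, 0.57 for *Dhcr7*, -0.52 for *Sqle* and -0.89 for *Fdft1*. *Insig1* and *Dhcr7* were close to each other, with r of 0.96.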

How the data were processed

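RIP-seq libraries (3 CELF2-KI RIP, 3 IgG RIP, 3 input) were grouped by their labels. Per the labels and the study's methods, the authors depleted rRNA, made directional libraries, checked reads with FastQC 0.11.9, trimmed them with fastp 0.23.4, removed rRNA reads with Ribodetector 0.3.1 and pseudoaligned with kallisto 0.51.1. The study's methods name an Ensembl transcriptome, while the rows carry RefSeq accessions. The authors deposited estimated counts per transcript, not scaled for depth or length. No column was left out.

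Here 86722 of 107384 rows were matched to genes by accession, ignoring versions, with the RefSeq table of GRCm38.p6 (the mm10 assembly of the labels), and 20662 were left out. Estimated counts were summed per gene, rounded, and tested where a protein-coding gene reached 0.5 CPM in 3 libraries, using TMM and the quasi-likelihood test of edgeR 4.0.16 (limma 3.58.1, R 4.3.3) with 1 mean per group over 9 libraries. SEs are the log2 fold change over the root of F. The files hold no transcript lengths, so levels are not compared between genes. Alternatives included DESeq2 1.42.0, other scalings and filters, transcript choices, and leaving out each library. The fit of transcript rows and the fits with a choice of rows took library sizes and TMM factors from those rows. The fit was tested on simulated data. CPM values use TMM-scaled library sizes, and intervals cover only the spread of these libraries. Reads carry no molecular identifiers.

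Replicates are described as biological, without naming the animals behind each. The spread between replicates was beyond sampling noise (chi-square of 11.9 to 44.1 per gene). Deviations from group means of same-numbered libraries 1, 2 and 3 correlated over 10064 genes by 0.182, 0.188 and 0.289 for the CELF2-KI RIPs with input, by -0.129, 0.057 and -0.070 for both kinds of RIP, and by 0.119, 0.133 and 0.025 for the IgG RIPs with input. From these values and not the labels, the number was read as pairing CELF2-KI RIP with input. Libraries with different numbers were not correlated, so this reading has no baseline, and the IgG RIPs with input were also above 0. The main fit used no pairing. A replicate block, which put the number on all 9 libraries, was an alternative.

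The 7 genes and all lists were chosen with earlier results of these data known. Genes named by rule are the 7, *Celf2*, *Srebf1*, *Insig2*, list genes called against both controls with up to 3 others per list called over IgG RIP, and the 3 closest to *Srebf2* and *Hmgcs1*. *Ctsb* and the genes that the text marks were named after their values were seen. Some genes of these lists are not reported here and are left out of the list counts.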

Additional observations from a re-analysis of the deposited data

How the results depend on the processing

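Of 441 alternative values of the 7 genes, 403 kept their direction and side of the threshold, 21 kept the direction and lost the call, 5 gained it and 12 changed sign. Most of the 441 belong to comparisons with no call to lose. The main fit called only 4 genes over IgG RIP, 2 over input and 0 between the controls. The 403 is therefore not a measure of how stable the calls were. Over IgG RIP, the 4 genes called (3 higher) became 2 (1 higher) with total counts, the upper quartile, noncoding genes in TMM, curated rows and, chosen after seeing the data, rows with the version of the gene table, and 1 (1 higher, 0 lower) with a test against 2-fold. The gene called higher was *Srebf2* under the 3 scalings and *Hmgcs1*, not among the 4, with curated and with versioned rows. With 1 library left out they ranged from 2 to 5, with 1 to 4 higher, the lowest without CELF2-KI RIP replicate 1. Over input, the 2 genes called became 1 with noncoding genes and with the test against 2-fold, with 0 higher under both; total counts gave 0 higher and 2 lower, *Fdft1* and *Sqle*. Between the controls, 0 became 1, which was lower, with the DESeq2 Wald test. The single target became 0 with total counts, noncoding genes, the test against 2-fold, curated rows and versioned rows, and the single gene lower than both became 0 with the test against 2-fold. The cause was not tested.

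Of the other 49 genes, 14 higher over IgG RIP became 6 with the test against 2-fold; 6 lower became 10 with total counts, 10 with the upper quartile and 3 with the test against 2-fold. Over input, 10 higher became 2, 3 and 2 with total counts, noncoding genes and the test against 2-fold, which also gave 5 lower in place of 9. Between the controls, 2 higher became 1 with DESeq2 size factors, total counts, noncoding genes, no filter, the DESeq2 Wald test and the test against 2-fold, and ranged from 1 to 2 with 1 library left out, the lowest without Input replicate 2; 5 lower became 0 with the test against 2-fold and 3 with versioned rows. The 9 targets became 2, 3 and 1 with total counts, noncoding genes and the test against 2-fold, and the 6 lower than both became 2 with the test against 2-fold.

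Signs changed for *Sqle* over IgG RIP (0.033 without CELF2-KI RIP replicate 2, -0.36 to 0.080 with 1 library left out), *Insig1* over input (-0.080 with total counts, -0.0053 with noncoding genes), *Dhcr7* over input (-0.041 with total counts, -0.65 with versioned rows) and over IgG RIP (-0.56 with curated rows). In IgG RIP over input they changed for *Dhcr7* (1.75 with curated rows), *Srebf2* (0.15 with curated and 0.084 with versioned rows) and *Lss* (0.020 with versioned rows, -0.11 to 0.069 with 1 library left out). With the replicate block the called genes among the 7 were 4 over IgG RIP and 2 over input, and it changed no other call. Input held the most counts.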
